A study of Mus musculus with 12 samples.

Results

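The rows described here carry the names of short non-coding RNAs: the spliceosomal RNAs (U1, U2, U4, U5, U6, U6atac), 7SK, Y RNA, 5S rRNA and microRNAs. They were picked by name (U followed by a digit, 7SK, Y_RNA, 5S_rRNA, 5_8S_rRNA, mmu-mir, Mir followed by a digit, Rnu, Rny or n-R) and by a mean over the 12 libraries of at least 1 FPKM, a fragment count corrected for transcript length and for the size of the library. Of 39248 rows in the table, 2376 had such a name, 1863 of these were listed at 0 in all 12 libraries, and 217 passed the minimum. The 3 rows just below it lay at 0.996, 0.996 and 0.997 FPKM and the 3 just above at 1.01, 1.04 and 1.06 FPKM.

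The series measured RNA in 3T3-L1 cells, a mouse preadipocyte line that turns into fat-storing cells in culture. Differentiated adipocytes were electroporated 2 days after differentiation with 0.75 nmol of a control siRNA (6 libraries) or of 1 of 2 siRNAs against Zfp407, a zinc finger gene (3 libraries each). The knockdown columns carry no mark of the siRNA and were used as 1 arm of 6. Each library came from an electroporation of its own in 1 cell line, so p-values measure the spread between electroporations. Any difference between the siRNAs adds to the spread of the knockdown libraries. Zfp407 itself read 2.83 ± 0.178 FPKM (SD, n = 6) in control and 1.79 ± 0.208 FPKM (n = 6) in knockdown libraries, and the arms did not overlap. Of the preadipocyte or fibroblast markers 7 of 8 reached 1 FPKM, with a summed level of 2470 to 2749 FPKM in control and 1953 to 2566 FPKM in knockdown libraries. All 11 adipocyte markers were at 1 FPKM or more, and their summed level ran from 19567 to 23882 FPKM in control and from 17953 to 22802 FPKM in knockdown libraries. The markers of macrophages, endothelium and epithelium all had means under 1 FPKM, and 1 of 3 muscle markers in the table reached 1 FPKM. The libraries held 2772930 to 3748490 FPKM in all, of which 19.4% to 32.8% lay on the mitochondrial chromosome, with the highest share in knockdown library 6. The material was bulk RNA, in which fewer cells of a type and less RNA per cell cannot be told apart.

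U1, U2, U4, U5 and U6 are the RNA parts of the particles that splice introns out of pre-mRNA, and U6 carries part of the catalytic core. U6atac takes the place of U6 in the minor spliceosome. RNA polymerase III makes U6, 7SK, Y RNA and 5S rRNA, while RNA polymerase II makes U1, U2, U4 and U5 and most microRNA precursors. 7SK holds the elongation kinase P-TEFb in an inactive particle, Y RNAs bind the Ro protein, 5S rRNA is part of the large ribosomal subunit, and microRNAs guide Argonaute proteins to target mRNAs. The mouse genome holds many copies of U6, most of them altered, and reads from identical copies cannot be told apart.

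Most of the U6 rows stand for a near copy of 1 sequence of 107 bases, and they were grouped by how many bases differ from it, after alignment of the sequences that GENCODE M21 gives for the copies on GRCm38. This sequence is called canonical here.

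U6 rows were higher after Zfp407 knockdown, and 11 of the 12 rows with the canonical sequence were called. Of 101 U6 rows, 45 were called higher and 3 lower by limma on log2(FPKM + 1) with Benjamini-Hochberg adjustment over all 14706 rows tested, at a threshold of 0.05. The background in the same test was 11.6% of all rows called higher and 24.8% called lower. The median log2 fold change was 0.80 over the U6 rows and -0.05 over all rows tested. In 25 U6 rows every knockdown library lay above every control library and in 2 every one lay below, against 5.51% and 13.9% of all rows tested. In the test against a minimum fold of 1.2, 26 U6 rows were called higher and 2 lower, against 2.13% and 3.69% of all rows. Filtering on the mean over both arms favours rows that are high in 1 arm, and 33 U6 rows passed it through the knockdown arm alone and 9 through the control arm alone. Among the 59 U6 rows with a mean of at least 1 FPKM in both arms, 36 were called higher and 0 lower by limma. Without library 6 of both arms, 2 libraries described below, 11 of the 12 canonical rows were called higher.

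**Figure D1:**
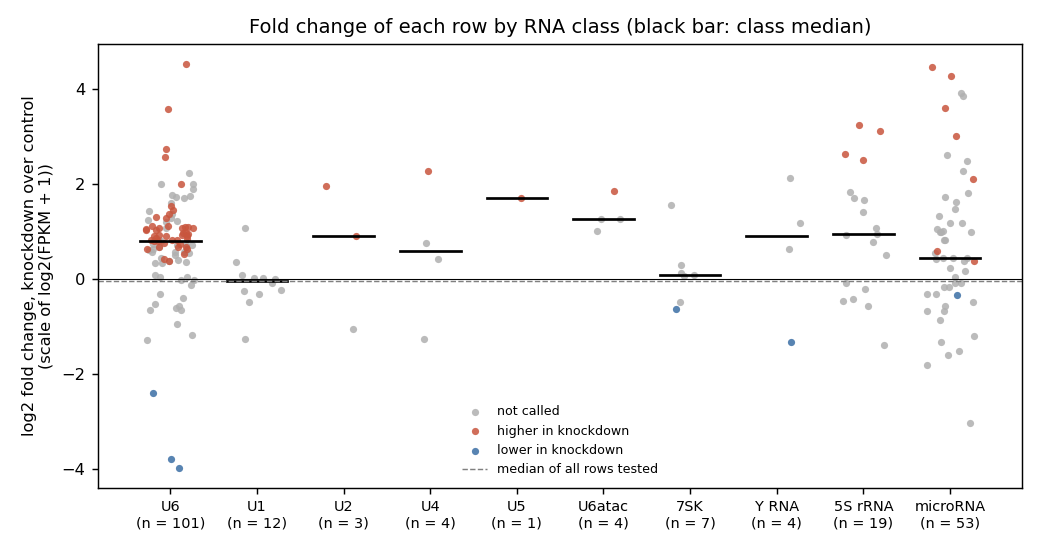
Log2 fold change (knockdown over control, on the scale of log2(FPKM + 1)) of each row in the 10 RNA classes with an established name, with colours for the call by limma, a black bar at the class median and a dashed line at the median of all rows tested (-0.05). The called U6 rows gather near 1, whereas the 12 U1 rows scatter around 0 with none called.

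The 12 rows whose annotated sequence is identical to the canonical U6 read 12.4 to 29.8 FPKM on average, and 11 of them were called higher. The median FPKM of these 12 rows ran from 12.6 to 17.3 in the control libraries and from 21.001 to 33.5 in the knockdown libraries. All 6 knockdown libraries thus lay above all 6 controls, with means of 15.2 ± 2.07 and 29.2 ± 4.38 FPKM (SD over libraries, n = 6). Summed over the 12 rows, control libraries held 181 ± 28.9 FPKM and knockdown libraries 337 ± 42.7 FPKM, a ratio of 1.86, with the highest control at 214 and the lowest knockdown library at 268 FPKM. GENCODE lists 43 genes with this sequence, of which 17 had a U6 row of their own in the table; 4 of these 17 were listed at 0 in all libraries, and adding the ones below the minimum left the ratio at 1.86. Reads inside this sequence fit all its copies, so the 12 rows are not counted as independent. Their values were not alike, and whether they share reads was not tested.

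A canonical row outside any annotated gene, XLOC_006961, read 11.7, 15.8 and 18.1 FPKM (lowest, median and highest) in control and 28.3, 33.2 and 41.8 FPKM in knockdown libraries. The arms did not overlap. Its log2 fold change was 1.10 (SE 0.11, adjusted p = 1.41e-05 by limma; exact permutation test over the libraries, two-sided, p = 0.00216, the smallest that 6 against 6 allow). This row and the next 3 were chosen with their values in view. The canonical copy with the largest rise, XLOC_004992, went from 6.34 ± 2.24 to 18.5 ± 3.66 FPKM (n = 6 each; log2 fold change 1.44). In the copy within an intron of Dmd, XLOC_036874, the means were 20.6 ± 2.00 and 27.9 ± 3.53 FPKM, a called rise of 0.42 on the log2 scale. The 1 canonical row that was not called, XLOC_019959 in an intron of Fam227b, read 12.7 ± 2.88 and 16.1 ± 2.54 FPKM (log2 fold change 0.33, adjusted p = 0.0871 by limma).

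**Figure D2:**
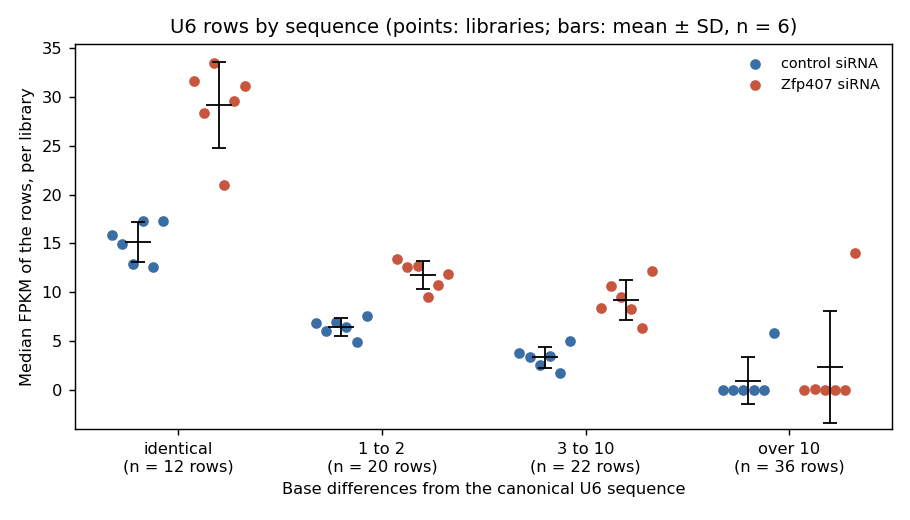
Median FPKM of the U6 rows in each library, for rows grouped by the number of base differences from the canonical sequence (points are libraries, bars mean ± SD, n = 6). In the identical group the control libraries sit between 12.6 and 17.3 and the knockdown libraries between 21.001 and 33.5, while in the group with over 10 differences most libraries are at or near 0 and library 6 of each arm stands apart.

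Copies that differ from the canonical sequence at few bases were also called higher in most rows. Reads from stretches that they share with the canonical sequence fit both, so these rows are not counted as independent of the canonical rows. The 20 rows with 1 to 2 differences hold 16 distinct sequences. Whether the near copies share reads with the canonical rows was not tested. Of 20 rows with 1 to 2 differences, 15 were called higher and 0 lower, with a median log2 fold change of 0.85. Their per-library medians were 6.48 ± 0.918 FPKM in control and 11.8 ± 1.44 FPKM in knockdown libraries. Of 22 rows with 3 to 10 differences, 14 were called higher and 0 lower, with a median of 0.81. Both copies named next have the highest mean of their group. The copy with 1 to 2 differences, XLOC_006742, read 15.1 ± 4.11 FPKM in control and 33.2 ± 4.25 FPKM in knockdown libraries. The copy with 3 to 10 differences, XLOC_034848, read 11.4 ± 2.92 and 20.9 ± 4.64 FPKM, and the highest control overlapped the lowest knockdown library.

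Copies farther from the canonical sequence were sparse. Of 36 rows with over 10 differences (11 to 38), 3 were called higher and 2 lower, and 31 were listed at 0 in at least 1 library. Their median log2 fold change was 0.70. The difference between this group and the nearer copies was not tested. The U6 row with the highest mean, XLOC_019103, belongs to it and lies across an exon of Odf2 on the opposite strand. It read 164, 256 and 379 FPKM in control and 78.5, 193 and 304 FPKM in knockdown libraries, with overlapping arms (log2 fold change -0.52, adjusted p = 0.231 by limma). Odf2 fell slightly in the same libraries (log2 fold change -0.24, adjusted p = 0.0183 by limma), and reads of a row and of a gene across it cannot be separated here, since the sources used here do not say whether the libraries keep strand.

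The 90 U6 rows with a single annotated match were also sorted by the letters ACAGAGA, the stretch of U6 that pairs with the 5′ splice site, searched on the annotated strand. The stretch stood in 66 of them, of which 40 were called higher and 2 lower, and was missing in 24, of which 3 were called higher and 0 lower. The medians of the log2 fold change were alike at 0.81 and 0.87. Of 934 snRNA genes in GENCODE within 40 differences of the canonical sequence, 60.7% hold ACAGAGA. Among the matched rows, all 12 canonical rows held it, as did 19 of 20 with 1 to 2 differences and 20 of 22 with 3 to 10. Of the 36 sparse rows with over 10 differences, 15 held it. Sorting by the stretch thus overlaps with sorting by the number of differences, and the 2 were not told apart. Of the U6 rows, 36 overlapped no annotated gene and 28 of these were called higher. Among the 29 in introns on the opposite strand 10 were called higher, and among the 21 in introns on the same strand 5 were.

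The U6 calls were also counted by the width of the locus that the table gives for a row. Of 39 U6 rows with a locus of at most 500 bases, 29 were called higher and 0 lower. Of 62 rows with a wider locus than the short RNA itself, 16 were called higher and 3 lower. Rows above 0 in all 12 libraries gave 41 higher and 0 lower calls of 56, and rows at 0 in some library gave 4 higher and 3 lower calls of 45.

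The largest fold changes among U6 rows were in rows near 0 in 1 arm. The copy in an intron of Psmc5, XLOC_004765, read 0 to 0.588 FPKM in control and 10.5 to 59.1 FPKM in knockdown libraries (log2 fold change 4.51, SE 0.32, adjusted p = 7.93e-07 by limma), while Psmc5, a proteasome subunit gene, fell by 0.35 on the log2 scale. The copy in an intron of Adam23, XLOC_001204, chosen after its values were seen, read 13.9 to 31.9 FPKM in control and 0 to 0.524 FPKM in knockdown libraries. Within an arm, the values of both copies were whole multiples of a smallest step, but 1 step was not worth the same in the arms. For the Psmc5 copy a step was 0.259 FPKM in control and 10.6 FPKM in knockdown libraries, with 5 and 17 steps over the 6 libraries of each arm. For the Adam23 copy a step was 14.05 and 0.254 FPKM, with 7 steps in each arm, so the number of steps did not differ. These fold changes therefore hold a difference in the worth of a step, and not only in the number of steps. In row XLOC_018380, whose locus spans 1997658 bases and matched no single U6 gene, the 6 control libraries had a median of 16.1 and a lowest value of 9.41 FPKM, and all 6 knockdown libraries were listed at 0. It was the 1 row at 0 throughout 1 arm and above 0 throughout the other. For the Psmc5 copy the authors' deposited table gives arm values of 9.98 and 30.4 FPKM, and for the Adam23 copy the authors' deposited table gives 17.9 and 15.7 FPKM, in both cases far closer than the library values.

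U2, which pairs with the branch point of the intron, had 3 rows, of which 2 were called higher, beside 11.6% of all rows tested. The row at chr1:155844966-155973152 holds a 149-base U2 copy inside Cep350 on the opposite strand. It is shown together with the U6atac copy described next, because these are the spliceosomal rows beside U6 with the highest levels among those called. Sequences and positions are those of GENCODE M21 on GRCm38. The U2 copy lies at chr1:155954574-155954722 (plus strand) and the U6atac copy at chr2:27539805-27539930 (minus strand).
U2 copy in Cep350: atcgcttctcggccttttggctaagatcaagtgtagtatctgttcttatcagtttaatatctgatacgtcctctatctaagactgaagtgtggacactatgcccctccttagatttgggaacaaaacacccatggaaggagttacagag
U6atac copy: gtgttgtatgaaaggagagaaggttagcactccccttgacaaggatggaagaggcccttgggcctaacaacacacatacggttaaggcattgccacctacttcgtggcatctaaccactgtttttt

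The U2 row in Cep350, XLOC_000700, read 20.9, 51.9 and 66.2 FPKM in control and 75.8, 81.6 and 92.0 FPKM in knockdown libraries. The arms did not overlap, and the controls spread far more than the knockdown libraries (SD 19.6 and 5.94 FPKM, n = 6 each). The log2 fold change was 0.90 (SE 0.26, adjusted p = 0.0161 by limma; exact permutation p = 0.00216), and the row was not called against a minimum fold of 1.2 (adjusted p = 0.172 by limma). The table has 2 rows named Cep350 here: one read 0.241 to 0.731 FPKM in control and 1.56 to 2.41 FPKM in knockdown libraries and was also called higher (log2 fold change 0.94), the other was not called (-0.12). The part of Cep350 reads in the U2 row was not tested. The second U2 row, XLOC_031366 in an intron of Lrfn3, read 0 to 3.88 FPKM in control and 3.17 to 11.9 FPKM in knockdown libraries (log2 fold change 1.95, adjusted p = 0.0025 by limma). The third, XLOC_010725, was listed at 0 in 11 libraries and at 78.3 FPKM in control library 6.

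U6atac had 4 rows, and the one outside any gene was called higher, beside 11.6% of all rows tested. XLOC_019075, the copy shown above, read 0, 6.06 and 17.3 FPKM in control and 16.4, 23.3 and 33.0 FPKM in knockdown libraries, so that 1 control library overlapped the knockdown arm. Its log2 fold change was 1.85 (SE 0.57, adjusted p = 0.0229 by limma; exact permutation p = 0.00649). It was no longer called with a pseudocount of 0.1 (adjusted p = 0.0769 by limma), against a minimum fold of 1.2 (0.123) or without library 6 of both arms (0.0522). The other 3 U6atac rows were above 1 FPKM in 2 knockdown libraries each and in 0 controls.

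U4, which escorts U6 into the spliceosome, and U5, which holds the exon ends, were barely measured. The U4 row with the highest mean, XLOC_025533 across an exon of Wdr1 on the opposite strand, read 4.89, 11.4 and 17.6 FPKM in control and 4.00, 18.5 and 32.3 FPKM in knockdown libraries (adjusted p = 0.487 by limma). The 1 U4 row called higher, XLOC_025942, read at most 0.195 FPKM in control and 0 to 10.8 FPKM in knockdown libraries, where its values were 1, 1, 1, 0, 1 and 2 times a smallest step of 5.34 FPKM. The 1 U5 row, XLOC_023276, was listed at 0 in 5 controls, and its call (log2 fold change 1.70, adjusted p = 0.0283 by limma) was lost without knockdown library 2 (0.0591) or 6 (0.0606), without library 6 of both arms (0.0921), without a filter (0.0540) and against a minimum fold (0.155). Of 4 U4 rows 1 was called, and of 1 U5 row 1, beside 11.6% of all rows tested called higher. The called rows had control means of 0.0788 FPKM (U4) and 0.0075 FPKM (U5), so both passed the minimum through the knockdown arm alone. For these control arms the authors' deposited table gives 1.57 FPKM (U4) and 0.259 FPKM (U5), far above the library means. With a mean of at least 1 FPKM asked of both arms, 1 U4 row and 0 U5 rows were left, with 0 calls.

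U1, the RNA that recognises the 5′ splice site, showed no called row among 12, and the median log2 fold change was -0.05. Of all rows tested 11.6% were called higher and 24.8% lower. The 12 rows are not counted as independent. Rows XLOC_004471, XLOC_004472 and XLOC_007347, named for this reason, had nearly the same value in each control library. XLOC_004471 and XLOC_007347 did so in each knockdown library too. The highest mean of a U1 row was 4.32 FPKM. That row, XLOC_026025 in an intron of Bcl7a, read 0 to 7.42 FPKM in control and 1.96 to 13.9 FPKM in knockdown libraries (log2 fold change 1.06, adjusted p = 0.0945 by limma), and it was called higher without control library 1 (1.36, adjusted p = 0.0263 by limma) or without knockdown library 4 (1.28, 0.0499). The U1 row XLOC_025424 outside any gene, chosen with its values in view, read 0, 1, 1, 2, 4 and 3 times a step of 1.77 FPKM in control libraries 1 to 6, and 1, 2, 3, 0, 2 and 1 times a step of 1.66 FPKM in the knockdown libraries. Its values rest on a handful of fragments per library, if a step is 1 fragment.

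**Figure D3:**
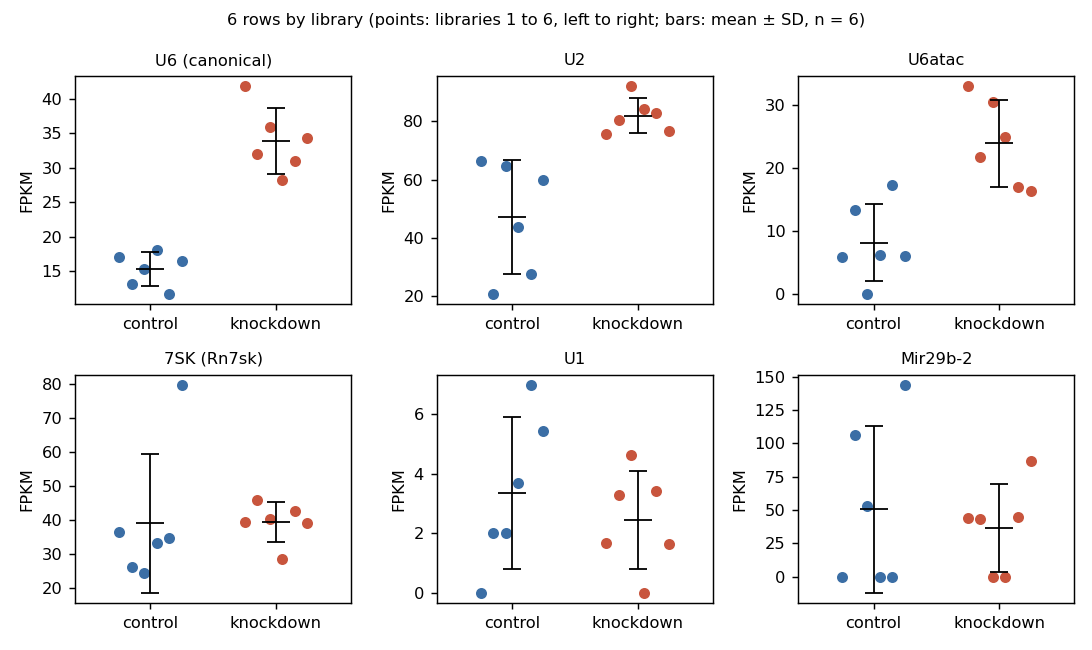
FPKM of 6 rows in each library (points are libraries 1 to 6 from left to right, bars mean ± SD, n = 6 per arm; axes do not all start at 0). The canonical U6 and U2 rows separate the arms, the 7SK row is level apart from 79.6 FPKM in control library 6, and the U1 and Mir29b-2 rows fall on a few repeated levels.

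The main 7SK row did not pass the test. The row of the annotated 7SK gene itself (Rn7sk, XLOC_035691, chr9:78175303-78175633) read 24.2, 33.9 and 79.6 FPKM in control and 28.5, 39.8 and 45.8 FPKM in knockdown libraries, and the arms overlapped throughout. The log2 fold change was 0.11 (SE 0.24, adjusted p = 0.740 by limma; exact permutation p = 0.703). Control library 6 stood apart at 79.6 FPKM, and the same library was the highest control in 3 more of these rows, XLOC_011500 at 23.0 FPKM, XLOC_038665 at 9.14 FPKM and XLOC_026360 at 3.37 FPKM, named for that reason. Beside 11.6% of all rows tested called higher and 24.8% lower, 0 of 7 rows named 7SK were called higher and 1 lower. This was XLOC_016779, with 5.85 ± 0.883 FPKM in control and 3.46 ± 0.887 FPKM in knockdown libraries (log2 fold change -0.63, adjusted p = 0.00204 by limma), which was not called against a minimum fold of 1.2 (adjusted p = 0.0893).

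Y RNA and 5S rRNA rows were sparse. The row of Rny1, XLOC_028660, read 0 to 42.7 FPKM in control and 0 to 18.7 FPKM in knockdown libraries, with means of 14.1 ± 17.0 and 13.4 ± 7.50 FPKM. A further Y RNA row, XLOC_028219, was called lower (log2 fold change -1.33, adjusted p = 0.0217 by limma), with 0 to 4.84 FPKM in control and at most 0.0651 FPKM in knockdown libraries. That call was lost without library 6 of both arms (adjusted p = 0.0752 by limma) and against a minimum fold (0.144). For the knockdown arm of XLOC_028219 the authors' deposited table gives 0.421 FPKM, against a library mean of 0.0108 FPKM.

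Of 19 rows named for 5S rRNA, 4 were called higher and 0 lower, beside 11.6% and 24.8% of all rows tested. Of these 4, 0 were above 1 FPKM in any control. In n-R5s67, n-R5s183 and XLOC_035360 of the 4, the authors' deposited control value was over 2-fold higher than the library mean. The row with the highest mean, n-R5s202 across an exon of Emc7 on the opposite strand, read 98.6, 154 and 177 FPKM in control and 92.4, 125 and 173 FPKM in knockdown libraries. It was the 1 row of this class above 0 in all 12 libraries, and its arms overlapped (log2 fold change -0.22, adjusted p = 0.353 by limma). The largest rise was that of n-R5s183 in an intron of Dcaf12 on the opposite strand, from at most 0.243 FPKM in control to 0 to 40.1 FPKM in knockdown libraries (log2 fold change 3.24, adjusted p = 0.0029 by limma). For its control arm the authors' deposited table gives 2.85 FPKM, against a library mean of 0.0803 FPKM. Among the 7 rows of this class with a mean of at least 1 FPKM in both arms, 0 were called by limma.

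MicroRNA rows carry the names of precursor hairpins, so their values are not to be read as levels of mature microRNA. Of the 53 rows 41 had a locus over 500 bases, wider than a hairpin, and their reads need not come from the hairpin. Of 53 rows, 7 were called higher and 1 lower, beside 11.6% and 24.8% of all rows tested. The mean minimum was passed through the knockdown arm alone by 20 of them and through the control arm alone by 6. Among the 27 with a mean of at least 1 FPKM in both arms, 2 were called higher and 1 lower, with a median log2 fold change of 0.17. Mature sequences were found for 40 of the 53 rows in the RefSeq table of GRCm38.p6. Their seeds (bases 2 to 8, in capitals) were shared by different names for miR-29b and miR-29c and for the 2 miR-365 genes. These and the sequences of the 2 microRNA rows of highest mean with an entry, miR-762 and miR-5125, are the ones shown. They lie at chr1:195037091-195037113 and chr1:195037600-195037621 (miR-29b-3p and miR-29c-3p, plus strand), chr11:79726467-79726488 (miR-365-3p of Mir365-2, plus strand), chr7:127708534-127708555 (miR-762, plus strand) and chr17:23823339-23823358 (miR-5125, plus strand).
miR-29b-3p: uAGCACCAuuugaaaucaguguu
miR-29c-3p: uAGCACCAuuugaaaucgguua
miR-365-3p: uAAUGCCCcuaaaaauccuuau
miR-762: gGGGCUGGggccgggacagagc
miR-5125: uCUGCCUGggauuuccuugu

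4 microRNA-named rows held most of the FPKM of all the rows described here. Mir5105 read 228559, 273582 and 360178 FPKM in control and 270843, 311366 and 360213 FPKM in knockdown libraries, with overlapping arms (log2 fold change 0.17, SE 0.14, adjusted p = 0.386 by limma). The rows mmu-mir-689-2, mmu-mir-2134-2 and mmu-mir-2134-4 have the same 57-base sequence in GENCODE and nearly the same values in every library, so they are 1 measurement listed 3 times. The sequence is shown as it stands at chr4:139338304-139338360 (plus strand), the mmu-mir-2134-2 row. The 4 rows took 15.2% to 21.7% of the summed FPKM of a library, and all the other rows described here together 0.124% to 0.180%.
mmu-mir-2134-2: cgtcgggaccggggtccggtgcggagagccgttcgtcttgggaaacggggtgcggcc

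That sequence read 67885, 82059 and 119312 FPKM in control and 81872, 125680 and 134227 FPKM in knockdown libraries. Knockdown library 6 lay below control libraries 1, 2 and 6, and knockdown library 1 below control library 1, so the arms overlapped. The means were 89270 ± 23134 and 119530 ± 19406 FPKM (n = 6 each), with a log2 fold change of 0.44 (SE 0.19, adjusted p = 0.0836 by limma; exact permutation p = 0.0411). The row mmu-mir-2134-2 was called higher without control library 1 (0.53, adjusted p = 0.0456 by limma), without knockdown library 6 (0.55, 0.0348) and without library 6 of both arms (0.63, 0.0194). Whether the reads of these 4 rows come from microRNA precursors was not tested.

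Mir762, across an exon of Bcl7c on the opposite strand, read 1334, 1585 and 2783 FPKM in control and 881, 1459 and 1824 FPKM in knockdown libraries, with overlapping arms (log2 fold change -0.31, adjusted p = 0.257 by limma). Bcl7c itself did not pass the test (log2 fold change -0.10). Mir5125, in an intron of Srrm2, read 53.0 to 550 FPKM in control and 104 to 350 FPKM in knockdown libraries (log2 fold change -0.68, adjusted p = 0.360 by limma). Control library 5 held the lowest of these values, and without it Mir5125 was called lower (-1.18, adjusted p = 0.0142 by limma).

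The called microRNA rows were mostly of low level. Mir135a-1, across an exon of Glyctk on the opposite strand, had the largest log2 fold change, with at most 0.645 FPKM in control and 0 to 116 FPKM in knockdown libraries (log2 fold change 4.45, SE 0.93, adjusted p = 0.00282 by limma). A step of this row was 0.310 FPKM in control and 25.04 FPKM in knockdown libraries, with 7 and 13 steps. Rows named for the 2 genes that encode the same miR-365-3p were called in opposite directions. Their loci span 19382 bases (Mir365-1) and 6363 bases (Mir365-2), far wider than a hairpin. Whether their reads come from the hairpins was not tested. Mir365-1 was the 1 microRNA row called lower, at 3.22 ± 0.436 FPKM in control and 2.31 ± 0.332 FPKM in knockdown libraries (log2 fold change -0.35, SE 0.09, adjusted p = 0.00784 by limma), and was not called against a minimum fold of 1.2. Mir365-2, named after its values were seen, was called higher, at 0.882 ± 0.118 and 9.13 ± 6.93 FPKM. A second row named Mir365-1 at the same locus was above 0 in knockdown library 6 alone, and whether the genes differ in their change was not tested.

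Mir29b-2 and Mir29c, which lie within an exon of A330023F24Rik on the same strand and share the seed shown above, show how coarse these rows are, and both were chosen with their values in view. Mir29b-2 read 0, 106, 53.1, 0, 0 and 143 FPKM in control libraries 1 to 6, which is 0, 2, 1, 0, 0 and 3 times a step of 46.7 FPKM. Its knockdown libraries read 1, 1, 0, 0, 1 and 2 times a step of 43.8 FPKM. Mir29c read 0 to 89.9 FPKM in control and 0 to 111 FPKM in knockdown libraries. Neither passed the test (adjusted p = 0.831 and 0.759 by limma). Steps of this kind, whole multiples within 0.1 of the smallest value after scaling for depth, were found in at least 1 arm for 69 of the 217 rows, among them 21 of 53 microRNA rows and 12 of 19 rows named for 5S rRNA. The whole multiples of an arm summed to a median of 6 steps over its 6 libraries. The rule takes arms with as few as 3 libraries above 0 and at most 6 steps in each, which holds this sum down. Some arms can meet the rule by chance, and how many was not estimated.

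Whole steps in both arms were found for 22 rows, which allowed the worth of a step to be compared. In 11 of them, Mir29b-2 among these, a step was worth 1.07-fold as much in control as in knockdown libraries, and 0 of these 11 were called. In the other 11 it differed between the arms by 20.6-fold to 286-fold, in 8 of them with the larger step in knockdown libraries, and 6 of these 11 were called higher and 1 lower. The called rows include the Psmc5 and Adam23 copies of U6, Mir135a-1 and the snoRNA row Rnu73b. A step is read from the same FPKM values as the fold change. Rows sorted by a far unequal step therefore lean to large fold changes, and rows with like steps do not. The difference in calls between these groups follows in part from the sorting, and no conclusion is drawn from it. The reason for the unequal worth of a step was not tested, and for rows without whole steps in both arms the comparison could not be made.

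Rows listed at 0 were common and uneven between libraries. Of the 217 rows, 119 were at 0 in at least 1 library, 28 in all 6 controls and 6 in all 6 knockdown libraries. The other 98 were above 0 in all 12 libraries, as were 14183 of all 14706 rows tested. Control libraries had 63 to 89 rows at 0 and knockdown libraries 60 to 79, except knockdown library 6 with 21. In the control arm, library 6 had the fewest. Of 31 rows above 0 in only 1 or 2 libraries, 25 were above 0 in knockdown library 6 and 7 in control library 6. Among all rows tested there were 58 such rows, of which 38 and 20 were above 0 in these libraries. In exactly 1 library 5 rows were at 0, of which 2 were called, against 108 rows with 31 called among all rows tested. Over all 14706 rows tested, knockdown library 6 again had the fewest at 0, with 74 against 161 to 251 in the other libraries. It also had the highest mitochondrial share given above, and the part of either in the results was not tested. Among rows above 0 in all 12 libraries, 46 of 98 were called higher and 2 lower, against 1568 and 3619 of 14183 among all rows tested.

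**Figure D4:**
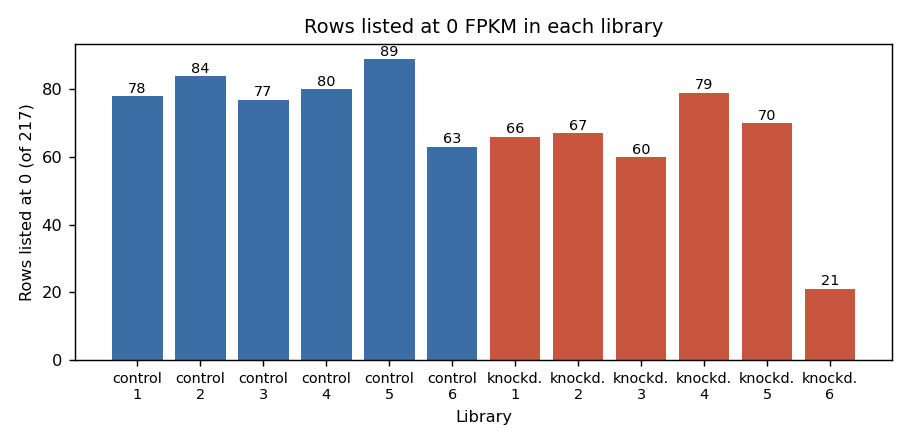
Number of the 217 rows listed at 0 FPKM in each library (bars start at 0). Knockdown library 6 has 21 such rows, the other knockdown libraries 60 to 79 and the control libraries 63 to 89.

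The authors' deposited table also gives 1 FPKM value per arm, and for 51 of the 217 rows (23.5%) it differed by more than 2-fold from the mean of that arm's 6 libraries, against 1.47% of all rows tested. In 35 rows this concerned the control arm and in 16 the knockdown arm. Of the 64 rows called higher here, 14 were among them, and of the 6 called lower 3. The most marked case was Rnu73b, a snoRNA by type, which the table lists at 0 to 1.34 FPKM in the control libraries and 98.8 to 446 FPKM in the knockdown libraries (log2 fold change 7.29, adjusted p = 5.68e-08 by limma). A step of Rnu73b was 0.393 FPKM in control and 98.8 FPKM in knockdown libraries, a 251-fold difference, with 6 and 15 steps. The authors' deposited table gives 120 FPKM for the control arm and 250 FPKM for the knockdown arm, a log2 fold change of 1.07. For Mir135a-1 the authors' deposited table gives 33.7 and 54.1 FPKM, whereas the mean of the control libraries was 0.379 FPKM. None of the 12 canonical U6 rows was among the 51, and XLOC_006961 has 15.7 and 34.9 FPKM in the authors' deposited table. The authors' deposited table holds no q-value under 0.813 for any of the 217 rows. Of all 14706 rows tested, 269 had a q-value below 0.05 in it. All 70 rows called here had the same direction in it. The authors' arm values describe the same libraries, so the shared direction is not separate evidence for the calls. How often the direction was shared over all rows was not counted.

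**Figure D5:**
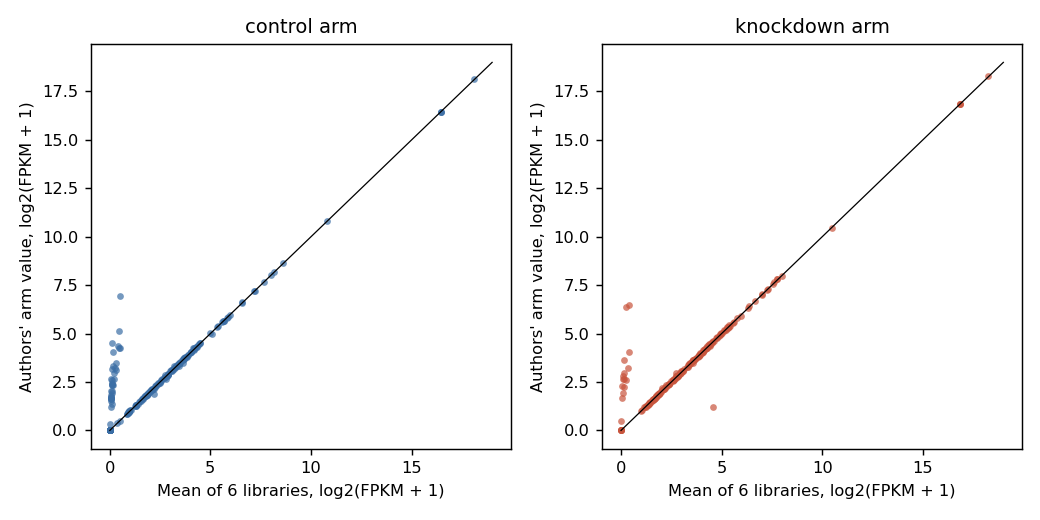
Authors' deposited FPKM of each arm against the mean of that arm's 6 libraries for the 217 rows, both as log2(FPKM + 1), with the line of equality. Most rows lie on the line, and in each arm a group with library means near 0 rises along the left edge.

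In all, 64 of 217 rows were called higher (29.5%) and 6 lower (2.76%), with a median log2 fold change of 0.72. Of all rows tested 11.6% were called higher and 24.8% lower, with a median of -0.05, and the counts in this paragraph are to be read beside these. For rows held to a mean of at least 1 FPKM in both arms, here and in the classes above, the share over all rows was not counted. Leaving out the 76 rows that passed the minimum through the knockdown arm alone and the 22 that passed through the control arm alone, 42 of 119 were called higher and 2 lower, and the median was 0.44. The class of names that includes the snoRNAs U3, U8 and Rnu73b had 2 of 4 rows called higher, both of which passed the minimum through the knockdown arm alone. Of 218 other rows with snoRNA names, 96 were called higher and 5 lower, with a median log2 fold change of 1.16. The protein-coding gene U2af1, whose name begins as the rule asks and whose product binds the 3′ splice site, read 50.8 ± 2.72 FPKM in control and 61.6 ± 2.46 FPKM in knockdown libraries and was called higher (log2 fold change 0.27, adjusted p = 0.000359 by limma). The 4 rows that name several genes, among them Mir5136,SNORA57 at 9.75 ± 7.94 and 12.4 ± 6.79 FPKM, had no call.

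Genes for the proteins that build, bind or transcribe these RNAs changed in both directions. The counts below are to be read beside the 11.6% of all rows called higher and the 24.8% called lower. Of 36 rows for proteins of the spliceosomal particles, 17 were called higher and 4 lower by limma, with a median log2 fold change of 0.16. Prpf3, a protein of the U4/U6 particle, rose from 19.5 ± 1.90 to 31.6 ± 2.87 FPKM, and Usp39, of the tri-snRNP, fell from 23.4 ± 0.770 to 17.4 ± 0.926 FPKM. Of 16 rows for Sm and LSm proteins, 4 were called higher and 2 lower. Naa38, the table's name at the GENCODE position of Lsm8, which is part of the ring on the 3′ end of U6, rose from 36.6 ± 2.67 to 46.4 ± 1.22 FPKM, and Lsm3, of the same ring, fell from 45.9 ± 4.32 to 32.1 ± 3.39 FPKM.

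Of 12 rows for the SMN complex and particle assembly, 1 was called higher (Ddx20, log2 fold change 0.20) and 4 lower. Gemin5, which recognises the snRNA for Sm ring assembly, fell from a mean of 8.46 ± 0.740 FPKM to one of 3.76 ± 0.819 FPKM (log2 fold change -1.01, adjusted p = 1.56e-05 by limma). Of 11 rows for the factors of snRNA promoters, 4 were called higher (Eaf1 had the smallest p, log2 fold change 0.27) and 2 lower. Snapc2, a subunit of the complex that binds snRNA promoters, fell, with 12.7 to 14.4 FPKM in control and 7.01 to 9.16 FPKM in knockdown libraries (log2 fold change -0.72, adjusted p = 2.63e-06 by limma). Of 22 rows for RNA polymerase III and its factors, 4 were called higher and 8 lower, with Polr3b among those called lower, at -0.30 on the log2 scale.

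The Integrator complex, which cuts the 3′ ends of snRNAs made by RNA polymerase II, had 1 of 10 rows called higher (Ints12, log2 fold change 0.30) and 5 lower (Ints8 had the smallest p, -0.35). Of 7 rows for the 7SK particle and P-TEFb, Ccnt2, a cyclin of P-TEFb, was called higher (log2 fold change 0.16) and Hexim1, the inhibitor that 7SK brings to P-TEFb, fell from 26.6 ± 1.61 to 18.5 ± 1.33 FPKM (-0.50, adjusted p = 2.15e-05 by limma). Of 5 rows for Y RNA, La and U6 end-processing proteins, 2 were called higher and 1 lower. Mettl16, which methylates U6, rose from 18.3 ± 1.32 to 25.6 ± 2.20 FPKM (log2 fold change 0.47), and Trove2, which encodes Ro, fell from 9.63 ± 0.409 to 7.81 ± 0.953 FPKM. Of 11 rows for microRNA maturation, 0 were called higher and 3 lower, with Eif2c1, an Argonaute, at -0.20 on the log2 scale.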

How the data were processed

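RNA sequencing of 6 control and 6 Zfp407 siRNA libraries of 3T3-L1 adipocytes was analysed. Per the file headers, the deposited table gives an FPKM value per row and library, made by the authors, and the authors' FPKM, log2 fold change, p-value and q-value for the arms. Cufflinks 2.0.2, SAMtools 0.1.18.0, TopHat2 2.0.5 and Bowtie2 2.0.0.7 are listed in the submitters' processing notes, with no settings, and the sources used here give neither the build nor the strandedness. Of 67 rows with a locus of at most 500 bases, 65 matched a short-RNA gene of GENCODE M21 on GRCm38 within 2 bases at both ends, and positions are given on that build, counted from 1.

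The test was that of limma 3.58.1 (R 4.3.3) on log2(FPKM + 1) (trend, two-sided, Benjamini-Hochberg over the 14706 rows with a mean of at least 1 FPKM, threshold 0.05), with no covariate. Fold changes are on that scale, which understates those of low rows. The fit was checked on simulated data. Depth is unknown, since FPKM holds no totals; relative depth within an arm was taken from the most frequent ratio of values in rows with a mean under 0.5 FPKM. A step was called whole within 0.1, with values up to 6 steps in at least 3 libraries. Values of at most 0.05 of the arm's highest were left out of this. U6 copies were aligned end to end with edlib. The members and lists were chosen with earlier results of these data known. Per class, the text names the row with the highest mean, the called rows with the largest rise and fall, all rows of classes with up to 3, the 6 highest microRNA rows and rows at 0 in 1 whole arm, and per protein list the called row with the smallest adjusted p in each direction; other rows are said to be chosen afterwards. Alternatives were other pseudocounts, filters and scalings, a minimum fold, rows or libraries left out. The U6 sequences and 1 protein-coding gene of the lists are not reported here.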

Additional observations from a re-analysis of the deposited data

Results flagged for a closer look

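The 6 libraries of each arm were searched for a value apart from the other 5 (the gap to the nearest over the range, against Dixon's 95% critical value) in 56 groups of the named rows, and 10 were found, 5 of them in a library 6. Chance alone flags about 1 in 20 groups of normally distributed values, but an arm above 0 in 1 library only is always flagged. The flagged arms of the U2, U5 and Y RNA rows below are of that kind, and rows of 1 sequence repeat 1 value. The 10 are therefore not to be set against that rate. The rows mmu-mir-689-2, mmu-mir-2134-2 and mmu-mir-2134-4, which are 1 sequence, were low in knockdown library 6 at 81872, 81872 and 81828 FPKM. The 7SK row XLOC_035691 was high in control library 6 at 79.6 FPKM, and the U2 row XLOC_010725 was above 0 there alone at 78.3 FPKM. Control library 1 was high for Mir762 at 2783 FPKM and for the U1 row XLOC_026025 at 7.42 FPKM. The remaining values lie near 0: Rnu73b at 1.34 FPKM in control library 3, the U5 row XLOC_023276 at 0.0450 FPKM in control library 5 and the Y RNA row XLOC_028219 at 0.0651 FPKM in knockdown library 4.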

How the results depend on the processing

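No paired analysis was possible because the knockdown columns' numbers 1 to 6 are not the sample numbers of each siRNA in the labels. Against the 64 of 217 rows called higher, the count was 36 with a minimum fold of 1.2. It was 33 of the 67 rows left without a locus over 500 bases. Settings that leave rows out remove called rows with the others, so a lower count there need not mean a lost call. Against 6 called lower, the count was 2 with a filter at 5 FPKM and 2 against the minimum fold. It was 2 of the 98 rows left without rows at 0 in any library and 1 of the 67 without wide loci. Without rows whose authors' arm value was over 2-fold off it was 3 (added after seeing the data, as was leaving out library 6 of both arms). Leaving out each library in turn gave 61 to 72 higher and 6 to 8 lower. The median log2 fold change of U6 rows was 1.04 with a pseudocount of 0.1 and 0.34 with one of 10, that of all rows described 0.27 with 10 and 0.44 without rows at 0, that of 5S rRNA rows 1.73 with 0.1 and -0.22 without rows at 0, and that of microRNA rows 0.82 with the filter at 5 FPKM, 0.10 without rows at 0 and 0.76 without wide loci. With each library left out the medians ran from 0.73 to 0.88 for U6, 0.37 to 0.66 for microRNA, 0.68 to 1.31 for 5S rRNA, -0.18 to 0.09 for U1, 0.00 to 0.26 for 7SK and 0.55 to 0.80 for all. The cause of these shifts was not tested. Of the 12 canonical U6 rows, 11 were called higher under each alternative except the minimum fold (9) and without control library 4 (12). With no read totals, what depth limits cannot be put in fragments, beyond the steps given for single rows.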
